A study of Homo sapiens with 15 samples.

Results

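HIF2α peaks that lay away from promoters, carried no BMAL1 peak and were still called when BMAL1 was depleted numbered 380 among the 1204 HIF2α peaks of shControl cells. They were chosen by 3 criteria applied to peak lists of CUT&RUN, an assay in which an antibody directs a nuclease to chromatin and the released DNA is sequenced. A member did not overlap any BMAL1 peak of shControl cells, overlapped a HIF2α peak of shBMAL1 cells by at least 1 bp, and had its midpoint outside the stretch from 1000 bp upstream to 100 bp downstream of every annotated transcription start site. Among all shControl HIF2α peaks, 72.1% had no BMAL1 peak, 73.1% were distal and 57.7% were retained in shBMAL1 cells. Of the 653 distal peaks without BMAL1, the 380 members (58.2%) were retained and 273 were lost. Since these values chose the members, they are given as a description.

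The cells were 786-O, an established line of clear cell renal cell carcinoma that lacks a functional VHL protein, so that HIF2α is stable in normal oxygen. Both arms were transduced with lentivirus and selected with puromycin, and carried either a control shRNA (shControl) or an shRNA against BMAL1 (shBMAL1). The 15 libraries comprised 3 each for BMAL1 and HIF2α and 2 for IgG in shControl cells, and 2 for BMAL1, 3 for HIF2α and 2 for IgG in shBMAL1 cells. Each antibody group had 1 pooled peak list, the IgG libraries were not analysed here, and the lists hold no read counts, so that the reads behind a peak are not known. The study's methods give 1 target depth for all libraries, and a further BMAL1 library of shBMAL1 cells was left out by the authors for its few reads. The tests below are therefore over peaks, without any error from library to library, and a site that was not called may hold signal below the calling threshold.

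HIF2α, encoded by EPAS1, is the oxygen-labile subunit of a basic helix-loop-helix PAS heterodimer whose usual partner is ARNT. The dimer binds the hypoxia response element (HRE), whose core is ACGTG or GCGTG, and in VHL-deficient kidney cancer it drives genes of growth, vessel formation and glucose use, often from enhancers far from the start site. BMAL1 is the circadian member of the same protein family, and with CLOCK it binds the E-box CACGTG, which contains an HRE core on each strand.

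The sequences under the strongest members show the motifs that the results below count. Each is the plus strand of hg19, 5′ to 3′, of 101 bases centred on the summit of the shControl HIF2α peak, at single-copy loci. Capitals mark an HRE core (ACGTG or GCGTG, or CACGT or CACGC where it is read on the other strand), an E-box (CACGTG) or an AP-1 site (TGACTCA or TGAGTCA). The first 3 were the strongest members with an HRE core in the printed bases, and the STX16 window also held the strongest E-box.
TGFA (chr2:70823934-70824034): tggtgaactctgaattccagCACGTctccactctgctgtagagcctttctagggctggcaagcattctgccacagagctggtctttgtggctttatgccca
STX16 (chr20:57240835-57240935): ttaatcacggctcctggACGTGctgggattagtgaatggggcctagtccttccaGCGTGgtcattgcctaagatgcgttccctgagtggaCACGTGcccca
SLC45A1 (chr1:8272259-8272359): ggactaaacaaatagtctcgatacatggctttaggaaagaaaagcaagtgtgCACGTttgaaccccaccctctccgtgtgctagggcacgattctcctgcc
The next were the other members printed for an E-box, of which the JUN member was much the weaker.
SYNPO (chr5:149998542-149998642): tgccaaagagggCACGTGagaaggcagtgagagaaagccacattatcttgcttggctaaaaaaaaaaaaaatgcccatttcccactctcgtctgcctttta
JUN (chr1:59221287-59221387): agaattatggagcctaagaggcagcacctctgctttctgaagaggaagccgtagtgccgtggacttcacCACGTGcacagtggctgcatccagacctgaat
An HRE core and an AP-1 site stood together in the following windows.
EGFR (chr7:55254115-55254215): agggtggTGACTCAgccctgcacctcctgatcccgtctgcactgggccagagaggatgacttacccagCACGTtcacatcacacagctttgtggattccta
ANGPTL4 (chr19:8427017-8427117): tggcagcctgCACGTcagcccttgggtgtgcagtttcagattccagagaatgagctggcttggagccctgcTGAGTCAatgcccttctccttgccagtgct
The strongest members without an HRE core or E-box anywhere in the 200 bp around the summit, shown as the contrast, were the following.
SUMF1 (chr3:4458793-4458893): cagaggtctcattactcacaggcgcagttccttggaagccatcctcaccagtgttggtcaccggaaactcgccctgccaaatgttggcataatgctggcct
CREB1 (chr2:208259706-208259806): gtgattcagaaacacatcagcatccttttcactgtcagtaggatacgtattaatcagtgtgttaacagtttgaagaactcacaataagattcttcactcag
The last 3 were taken in order of strength from the single-copy members whose printed bases hold a T-flanked HRE core, in which T stands before the first of the core forms. Stronger members hold one outside the printed bases or lie at loci whose sequence is not shown. This set was added after the shares of the preceding bases had been seen. In UBE2O and CP the core is read on the other strand, so that the T appears as the A after CACGT.
UBE2O (chr17:74443192-74443292): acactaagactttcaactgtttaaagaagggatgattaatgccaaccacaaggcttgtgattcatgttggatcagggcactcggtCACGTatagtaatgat
KRCC1 (chr2:88356348-88356448): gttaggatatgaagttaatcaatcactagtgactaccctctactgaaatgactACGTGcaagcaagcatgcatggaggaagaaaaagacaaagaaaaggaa
CP (chr3:148943163-148943263): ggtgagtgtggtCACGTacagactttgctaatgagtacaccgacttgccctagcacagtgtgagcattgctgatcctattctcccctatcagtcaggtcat

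By median, the retained distal peaks stood at similar heights in both HIF2α lists. The criteria required a call in each list, so sites that fell below the threshold in shBMAL1 cells are left out. Similar medians are therefore in part set by the choice of members. Fold enrichment, the ratio of a peak over the local background that MACS2 gives, ran from 2.309 to 27.1 in the shControl list, with a median of 8.38 and quartiles of 6.68 and 10.5. In the shBMAL1 list the same sites ran from 2.69 to 29.8, with a median of 8.56 and quartiles of 6.82 and 11.02. The log2 ratio of the folds, shBMAL1 over shControl, had a median of 0.07 and quartiles of −0.23 and 0.39. Fold was higher in the shBMAL1 list at 210 members and lower at 170, and at 278 it was within 1.5 times in either direction. Retained distal peaks with a BMAL1 peak had a median log2 ratio of −0.15 (n = 147), retained promoter peaks without BMAL1 had −0.0036 (n = 112), and all 695 retained HIF2α peaks had 0.025. These ratios come from lists without read counts and were not tested. Across members the folds of both lists had a Spearman rho of 0.48 (n = 380 sites, the same pooled libraries behind every point).

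**Figure D1:**
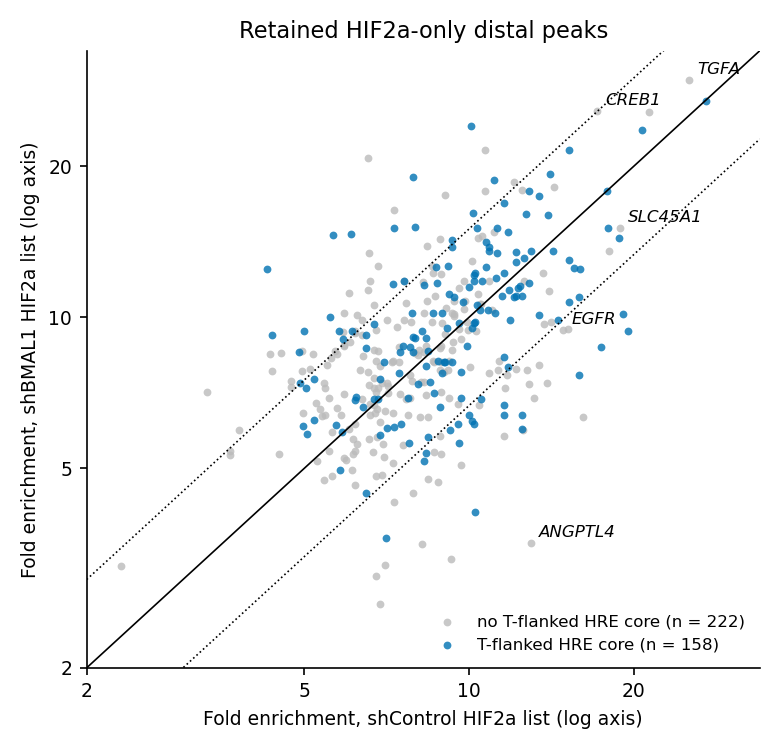
Fold enrichment of each of the 380 members in the shControl HIF2α list (x axis) and the shBMAL1 HIF2α list (y axis), both on log axes, with the line of equal fold and dotted lines at 1.5 times. The cloud spreads around the line of equal fold, with 278 members between the dotted lines, 55 above them and 47 below. Sites not called in shBMAL1 cells are left out by the criteria. Members with a T-flanked HRE core (blue, n = 158) have a higher median shControl fold than those without (grey, n = 222), at 9.57 against 7.60.

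By quintile, members leaned toward the stronger part of the shControl list. Of the 5 quintiles of that list by peak p, from weakest to strongest, they held 33, 41, 85, 108 and 113 peaks. At the very top they were not more frequent than elsewhere. Of the 100 strongest HIF2α peaks 32 were members, near their share of 31.6% among all shControl HIF2α peaks, and the strongest member had rank 28. Their median rank was 406.5 of 1204 in shControl cells and 411 of 1089 in shBMAL1 cells. The lost distal peaks had a median fold of 6.59 and a median rank of 809, and the strongest quintile held 6 of them. The summit of a member moved by a median of 26 bp between the lists, and 295 of 380 summits moved by 50 bp or less. The median width was 235 bp in shControl and 240 bp in shBMAL1 cells.

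The strongest member lay 42.9 kb from the start of TGFA, which encodes a ligand of the EGF receptor and is a HIF2α target in kidney cancer. This intergenic peak (chr2:70823616-70824324) had rank 28 and a fold of 25.3 in shControl cells, and rank 15 and a fold of 29.8 in shBMAL1 cells. An intron of EGFR, the receptor for that ligand, held another of the 10 strongest (chr7:55253805-55254318). Its fold was 14.9 at rank 50 in shControl and 9.42 at rank 165 in shBMAL1 cells. EGFR was the nearest or host gene of 3 members, whose other folds were 6.20 and 5.44 in shControl and 5.40 and 6.38 in shBMAL1 cells.

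The other 8 of the 10 strongest members were spread over gene functions. An intergenic peak 628 kb from the nearest coding start, TLR4, had the highest fold of all members in the shControl list (chr9:121094031-121094358, 27.1), and its fold in the shBMAL1 list was 27.0. The peak in an intron of STX16, a syntaxin of vesicle fusion, had folds of 21.4 and 25.7 in the same order. The peak 19.3 kb from APOH, which encodes a plasma glycoprotein, had folds of 20.7 and 23.6. In a noncoding gene 106 kb from SLC45A1, a sugar transporter, the folds were 18.9 and 15.1. The intronic peak of UBE2O, a ubiquitin-conjugating enzyme, went from a fold of 19.1 at rank 47 to 10.1 at rank 301. The peak on a coding exon of SUMF1, the sulfatase-activating enzyme, had folds of 18.0 and 13.6. The peak in an intron of GSE1 had 12.1 and 18.6, and the peak in a noncoding gene 135 kb from CREB1, a cAMP-responsive transcription factor, had 17.2 and 25.8. Fold was thus lower in shBMAL1 cells at 4 of these 8 sites and higher at 4.

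The change in percentile rank of the members between the lists had quartiles of −10.5 and 14.6, where a positive change is a weaker place in the shBMAL1 list. The 3 largest falls in rank were at ANGPTL4, ESYT2 and KCTD3. The ANGPTL4 peak 1.11 kb from the start (chr19:8426836-8427246) had a fold of 13.0 at rank 122 in shControl and 3.55 at rank 1056 of 1089 in shBMAL1 cells. ANGPTL4 encodes a secreted inhibitor of lipoprotein lipase that is induced by hypoxia. It had 2 members, and the values here are those of this peak alone. The intronic ESYT2 peak went from a fold of 7.02 at rank 320 to 3.21 at rank 1069, and the intergenic peak 67.4 kb from KCTD3 from 6.76 at rank 229 to 3.05 at rank 953. The largest rises were at ORAI3, MYC and PBRM1. The peak in an intron of ORAI3, a calcium channel subunit, went from a fold of 4.27 at rank 891 to 12.5 at rank 158. A peak in PVT1, a noncoding gene beside MYC, went from 4.96 at rank 981 to 7.81 at rank 298, in a shBMAL1 peak that also covers a neighbouring member. The peak in an intron of PBRM1, which encodes a chromatin remodelling subunit often mutated in this cancer, went from 4.33 at rank 1192 to 8.47 at rank 490.

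In position the members were mostly intronic or intergenic. The summit lay in an intron of a protein-coding gene at 183 members (48.2%), between genes at 116 (30.5%), in a noncoding gene at 67 (17.6%), on an untranslated exon at 8 and on a coding exon at 6. The lost distal peaks were intronic at 115 of 273 (42.1%), a difference of 6.03 percentage points that did not pass the test (two-sided Fisher's exact test, adjusted p = 0.262, with Benjamini-Hochberg adjustment over the 16 planned tests). The nearest protein-coding start lay a median of 31.1 kb away, with 100 members within 10 kb, 199 between 10 and 100 kb and 81 beyond 100 kb. It was 28.4 kb in the lost peaks. Members lay upstream of that start at 184 sites and downstream at 196. The 200 bp summit window had a second copy in the genome at 29 members (7.63%) against 20 of 273 lost peaks (7.33%, adjusted p = 1 by Fisher's exact test), so that reads there may not be placed with certainty. Single sites predominated, with 28 members within 10 kb of another member.

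The criteria excluded overlap with a shControl BMAL1 peak, so some gap between members and those peaks was set in advance. The gap to the nearest shControl BMAL1 peak had a median of 331 kb, and 29 members had one within 10 kb. These distances were not set against those of other peaks or of random sites, so they do not show avoidance of BMAL1. In the BMAL1 list of shBMAL1 cells, which the criteria did not use, 6.89% of all 1204 HIF2α peaks overlapped a peak, and 5 of the 380 members did (1.32%). The share was 1 of 273 in lost peaks and 2 of 112 in retained promoter peaks, and neither difference passed the test (adjusted p = 0.655 and 0.881 by Fisher's exact test). Sites with a shControl BMAL1 peak had been removed by the criteria from all of these classes, but not from the 1204. The paper reports that many shControl BMAL1 peaks were still detected in shBMAL1 cells. Low shares in these classes were therefore largely set by the criteria. With so few overlaps the tests could hardly tell the classes apart. The 5 members lay at TENM2, AGBL4, KCTD3, NOTCH1 and PFKFB3, in order of HIF2α strength. At TENM2 the BMAL1 peak of shBMAL1 cells had a fold of 11.2 at rank 248 of 768, although the nearest shControl BMAL1 peak was 2630772 bp away. The summit window there held no HRE core and no E-box. The BMAL1 and HIF2α peaks of shBMAL1 cells began at the same base, and whether BMAL1 itself bound the site was not tested. The AGBL4 site has 5 copies in the genome. NOTCH1 encodes a cell surface receptor of cell fate, and its BMAL1 peak had a fold of 7.97 at rank 654.

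The HRE core was the most frequent of the 6 motifs in the members. It stood in the 200 bp summit window of 296 of 380 members (77.9%, 95% Wilson interval 73.5% to 81.8%, counting error only), against 24.8% of 759 windows placed 2000 bp to either side and 16.5% of the 200 bp windows of the genome. Over all HIF2α peaks it stood in 70.8%. At the summits of the shBMAL1 peaks of the same sites the share was 79.5%. Of the member windows, 186 held 1 core, 72 held 2 and 38 held 3 or more, where an E-box counts as a core on each strand. Among the 50 strongest members 43 held a core. Introns (79.8%), intergenic sites (75.0%) and noncoding genes (79.1%) had like shares.

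Retained distal peaks held an HRE core more often than lost ones. The share was 77.9% against 172 of 273 (63.0%, 57.1% to 68.5%), a difference of 14.9 percentage points (95% interval 7.82 to 21.9, adjusted p = 0.000382 by two-sided Fisher's exact test). Within quintiles of shControl peak p the difference was 8.34 points, with an unadjusted p of 0.0493 and an adjusted p of 0.345 (exact conditional Cochran-Mantel-Haenszel test, adjusted over 7), so that the call did not hold among peaks of like strength. In windows of 100 bp it was 7.69 points (adjusted p = 0.290 by Fisher's exact test). Retained promoter peaks without BMAL1 held a core in 100 of 112 windows (89.3%), 11.4 points more than the members (adjusted p = 0.0211 by Fisher's exact test). That call was lost in 7 of the alternatives, among them the window centred on the midpoint, where the difference was −3.83 points. Retained distal peaks with BMAL1 held a core in 89 of 147 windows (60.5%), 17.4 points below the members (adjusted p = 0.000605 by Fisher's exact test). Of those 147 peaks 18 have their summit in the body of EPAS1 or ARNT. Without them the share was 66.7% and the difference 11.2 points (adjusted p = 0.0427 by Fisher's exact test). The call was lost in windows of 100 bp (6.33 points, adjusted p = 0.467 by Fisher's exact test) and with distal set beyond 2500 bp of a start (11.4 points, adjusted p = 0.0744).

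**Figure D2:**
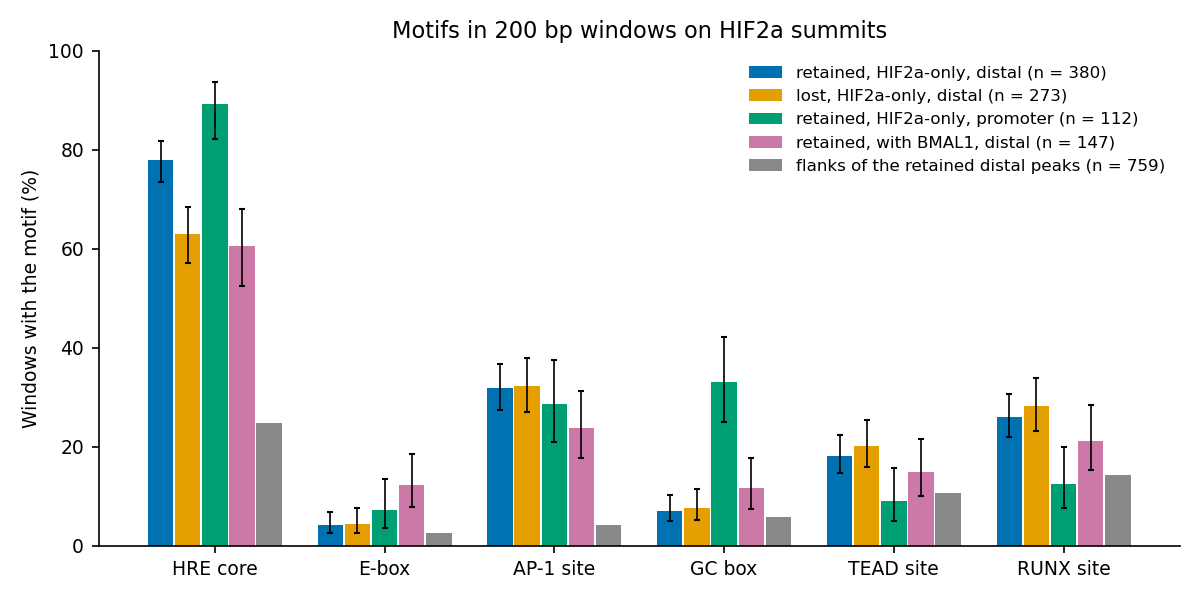
Share of 200 bp windows with each of 6 motifs in 4 classes of HIF2α peaks and in windows 2000 bp to either side of the members, with 95% Wilson intervals for the peak classes. The members (blue) hold an HRE core in 77.9% of windows and an AP-1 site in 31.8%, and the GC box stands out in the promoter class (green, 33.0%).

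The HRE cores of the members were unevenly spread over the bases that can precede them. The hexamer TACGTG, in which T precedes the first form of the core (the T-flanked HRE core), stood in 158 of 380 member windows (41.6%, 36.7% to 46.6%) and in 1.71% of the windows to either side. The lost distal peaks held it in 59 of 273 windows (21.6%, 17.1% to 26.9%). The next most frequent forms in the members were GACGTG in 80 windows (21.1%, against 18.7% of lost and 2.90% of flanking windows) and TGCGTG in 50 (13.2%, 10.3% and 3.56%). AACGTG stood in 10.5% of member windows and 9.52% of lost ones, GGCGTG in 8.95% and 7.33%, AGCGTG in 7.89% and 7.69%, CACGTG in 4.21% and 4.40%, and CGCGTG in 1.32% and 1.47%. GGCGTG stood in 9.75% of the windows to either side.

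Tests of the 8 hexamers were added after these shares had been seen and adjusted over 10 comparisons. TACGTG was 19.97 points more frequent in retained than in lost peaks (adjusted p = 4.74e-07 by Fisher's exact test), and the other 7 had adjusted p between 0.684 and 1. Within quintiles of peak p the TACGTG difference was 9.37 points, with an unadjusted p of 0.0284 and an adjusted p of 0.227 (exact conditional test, over 8). Against retained distal peaks with BMAL1, where 16 of 147 windows held it (10.9%), the members were 30.7 points higher (adjusted p = 1.61e-11 by Fisher's exact test). Against retained promoter peaks (36 of 112, 32.1%) the difference of 9.44 points did not pass the test (adjusted p = 0.263 by Fisher's exact test). Read the other way, 217 distal peaks without BMAL1 held TACGTG, and 72.8% of them were retained (66.5% to 78.3%), against 222 of the 436 without it (50.9%, 46.2% to 55.6%).

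TACGTG and peak strength moved together within the members. The hexamer stood in 10 of 33, 9 of 41, 30 of 85, 48 of 108 and 61 of 113 members of the 5 quintiles, from weakest to strongest, which is 30.3%, 21.95%, 35.3%, 44.4% and 54.0%. The lost peaks of the same quintiles held it at 21.4%, 11.5%, 26.5%, 46.4% and, in the strongest quintile, 0 of 6 peaks. The share was higher in retained than in lost peaks in the 3 weakest quintiles, where the intervals of both classes overlap, and in the strongest, where they do not but the lost peaks number 6. The median fold of members with TACGTG was 9.57 in shControl and 9.74 in shBMAL1 cells, against 7.60 and 7.99 without it. Of the 50 strongest members 29 held it, but of the 10 strongest only 3 did. The distance from summit to TACGTG had a median of 50.5 bp, and 38 of the 158 windows (24.1%) also held an AP-1 site.

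**Figure D3:**
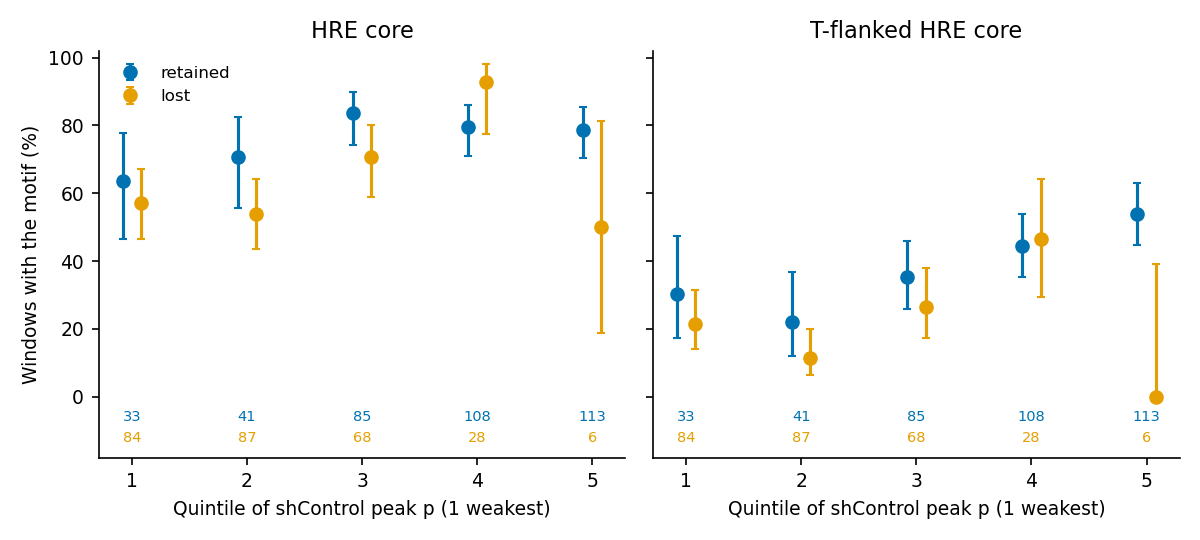
Share of windows with an HRE core (left) and with a T-flanked HRE core (right) in retained and lost distal HIF2α peaks without BMAL1, by quintile of shControl peak p, with 95% Wilson intervals and the number of peaks under each point. The T-flanked core rises from 30.3% of retained peaks in the weakest quintile to 54.0% in the strongest, and the intervals of retained and lost peaks overlap in the 4 weaker quintiles.

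HRE cores did not centre on the summit. In genome order, 318 core matches lay in the 100 bp before the shControl summit of members and 148 in the 100 bp after it. The densest 20 bp bin was centred 70 bp before the summit, with 21.6 cores per 100 members. The lost peaks had 170 cores before and 98 after, and the shBMAL1 summits of the members had 308 and 148. AP-1 sites lay before the shControl summit of members in 83 cases and after it in 46. With windows moved by 60 bp toward lower coordinates, an alternative added after this was seen, 85.3% of members and 68.9% of lost peaks held an HRE core, and 47.9% and 24.2% held TACGTG. How the summits were placed relative to read ends was not tested.

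**Figure D4:**
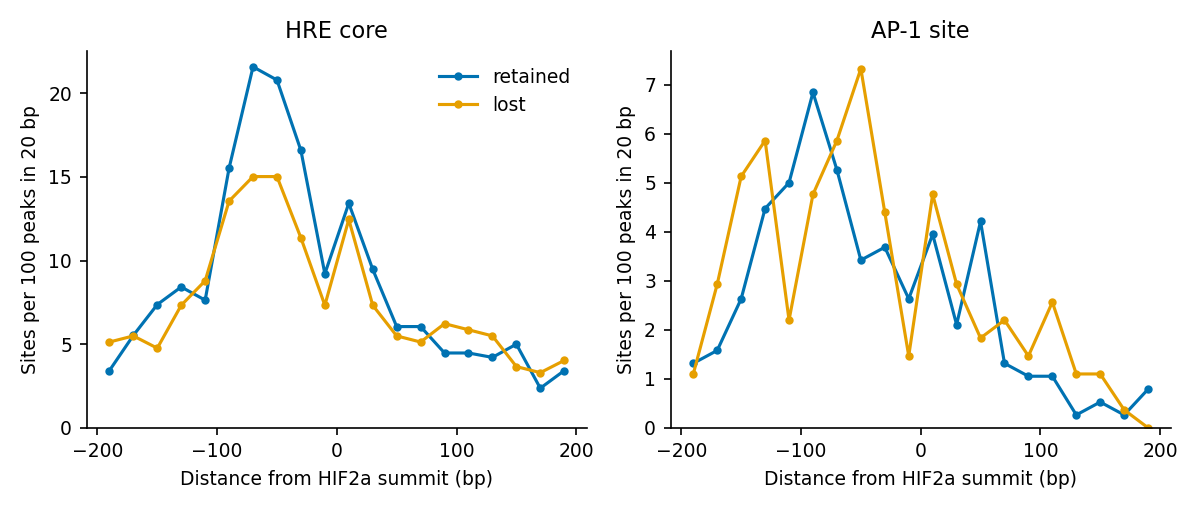
Density of HRE cores (left) and AP-1 sites (right) per 20 bp around the shControl HIF2α summit, in sites per 100 peaks, for retained and lost distal peaks without BMAL1. HRE cores reach 21.6 per 100 retained peaks in the bin 70 bp before the summit, and both classes have more sites before than after the summit.

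AP-1 sites, bound by FOS and JUN dimers at active enhancers of many cell types, were the other motif well above the flanks. They stood in 121 of 380 member windows (31.8%, 27.4% to 36.7%), against 4.08% of the windows to either side, 3.05% of the genome's windows and 27.5% of all HIF2α peaks. The lost distal peaks held them in 88 of 273 windows (32.2%, adjusted p = 1 by Fisher's exact test), and the difference had a 95% interval from −7.69 to 6.76 points. Retained promoter peaks (32 of 112, 28.6%) and retained distal peaks with BMAL1 (35 of 147, 23.8%) did not differ past the threshold (adjusted p = 0.818 and 0.191 by Fisher's exact test). An HRE core and an AP-1 site stood together in 87 member windows, an HRE core alone in 209, an AP-1 site alone in 34 and neither in 50. AP-1 sites stood in 29.4% of member windows with an HRE core and in 40.5% of those without, a description with no test. Where both were present they lay a median of 54 bp apart, 19 pairs within 20 bp.

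E-boxes were rare in the members. They stood in 16 of 380 windows (4.21%, 2.61% to 6.73%), against 2.64% to either side, 1.83% of the genome's windows and 6.81% of all HIF2α peaks. Retained distal peaks with BMAL1 held them in 18 of 147 windows (12.2%), 8.03 points more (adjusted p = 0.0056 by Fisher's exact test), and this call was lost in windows of 100 bp (−3.34 points, members minus those with BMAL1) and on the midpoint (−5.31 points). The criteria split these classes by a BMAL1 peak, and BMAL1 with CLOCK binds this motif. The comparison is therefore tied to the choice of members. The lost peaks (12 of 273, 4.40%) and promoter peaks (8 of 112, 7.14%) did not differ from the members past the threshold (adjusted p = 1 and 0.382 by Fisher's exact test). The 5 strongest members with an E-box in the 200 bp window lay at STX16 (rank 34), SYNPO (rank 83), MTFP1 (rank 147), PFKFB3 (rank 312) and JUN (rank 493).

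The GC box GGGCGG, bound by SP factors at many promoters, stood in 27 of 380 member windows (7.11%), against 18.4% of all HIF2α peaks. In retained promoter peaks it stood in 37 of 112 windows (33.0%), 25.9 points more (adjusted p = 8.35e-10 by Fisher's exact test). Lost distal peaks (7.69%) and distal peaks with BMAL1 (11.6%) did not differ past the threshold (adjusted p = 0.940 and 0.260 by Fisher's exact test). The sites searched for TEAD and RUNX factors (GGAATG and TGTGGT, on either strand) stood in 18.2% and 26.1% of member windows, against 10.7% and 14.4% to either side. In lost peaks they stood in 20.1% and 28.2%, and in retained promoter peaks in 8.93% and 12.5%, shares that were described without test. The median GC content of the window was 50.5% in members and in lost peaks, 60.25% in promoter peaks and 40.9% in the genome. None of the 6 motifs was found in 26 member windows.

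The members were assigned to genes by the nearest protein-coding start or a summit in the gene body. Of 19548 protein-coding genes 372 (1.90%) had a member, 31 had 2 and 5 had 3, namely MYC, EGLN3, CMIP, PFKFB3 and EGFR. Assignment by distance does not show which gene a site acts on. Genes of 7 lists were looked up, and the lists were chosen with earlier results of these data known.

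Among 12 genes of oxygen sensing, 1 had members. EGLN3 encodes a prolyl hydroxylase that marks HIF proteins for VHL and is itself a HIF target, and 3 of its intronic sites were members. The strongest (chr14:34504889-34505273) had a fold of 13.4 at rank 136 in shControl and 17.4 at rank 77 in shBMAL1 cells, with TACGTG and an AP-1 site in the window. The others had folds of 8.63 and 7.72 in shControl and 8.13 and 6.89 in shBMAL1 cells. EPAS1, ARNT, CITED2 and KDM3A had HIF2α peaks of other classes and no member.

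Among 18 HIF targets in growth and vessels, 8 had 12 members in all. Beside TGFA and ANGPTL4, the latter with 2 members, these were MYC, PDGFB, IGFBP3, CXCR4, LOXL2 and NDRG1. The site 7.41 kb from PDGFB, a growth factor for vessel support cells, held TACGTG and had folds of 12.2 in shControl and 13.5 in shBMAL1 cells. The site 56.6 kb from IGFBP3, which binds insulin-like growth factors, held 4 cores and had folds of 11.1 and 14.8. The site 127 kb from CXCR4, a chemokine receptor in metastasis, had folds of 9.56 and 6.14. LOXL2, a lysyl oxidase of the matrix, had intronic sites with folds of 12.5 and 9.59 in shControl and 6.38 and 11.4 in shBMAL1 cells, so that one was lower and the other higher after the knockdown. The site 80.1 kb from NDRG1, a hypoxia-induced gene, had folds of 9.55 and 6.73. The 3 members beside MYC all lay in PVT1, with folds of 6.41, 4.37 and 4.96 in shControl and 8.36, 7.81 and 7.81 in shBMAL1 cells. Both values of 7.81 are those of the same shBMAL1 peak. Another distal peak without BMAL1 assigned to MYC, with a shControl fold of 7.25 at rank 444, was lost. VEGFA, ADM and STC2 were among those with HIF2α peaks and no member.

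Among 20 HIF targets in metabolism, 8 had 11 members. SLC2A1, the main glucose transporter of many tumours, had 2 in its divergent noncoding gene, at folds of 7.38 and 5.83 in shControl and 9.56 and 6.38 in shBMAL1 cells. The stronger of them (chr1:43428453-43428692) had its midpoint 38 bp outside a promoter. PFKFB3, which makes the activator of phosphofructokinase, had 3 sites in LINC02649, at folds of 9.09, 6.36 and 5.55 in shControl and 10.5, 9.88 and 6.90 in shBMAL1 cells. The intronic site of CA12, a carbonic anhydrase of the cell surface, was the strongest of the list by p, at rank 66 in shControl and 68 in shBMAL1 cells (folds 10.4 and 14.4), and its window held no HRE core. BNIP3L, a receptor of mitochondrial removal, had folds of 12.2 and 7.87, and PLIN2, a coat protein of lipid droplets, had 10.1 and 9.53. SLC2A3 had folds of 6.81 and 7.22, PFKP 6.33 and 7.86, and LDHA 7.11 and 7.07. HK2, PFKFB4, ALDOA, ENO1, PGK1, PDK1, HILPDA and SCD had HIF2α peaks and no member.

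**Figure D5:**
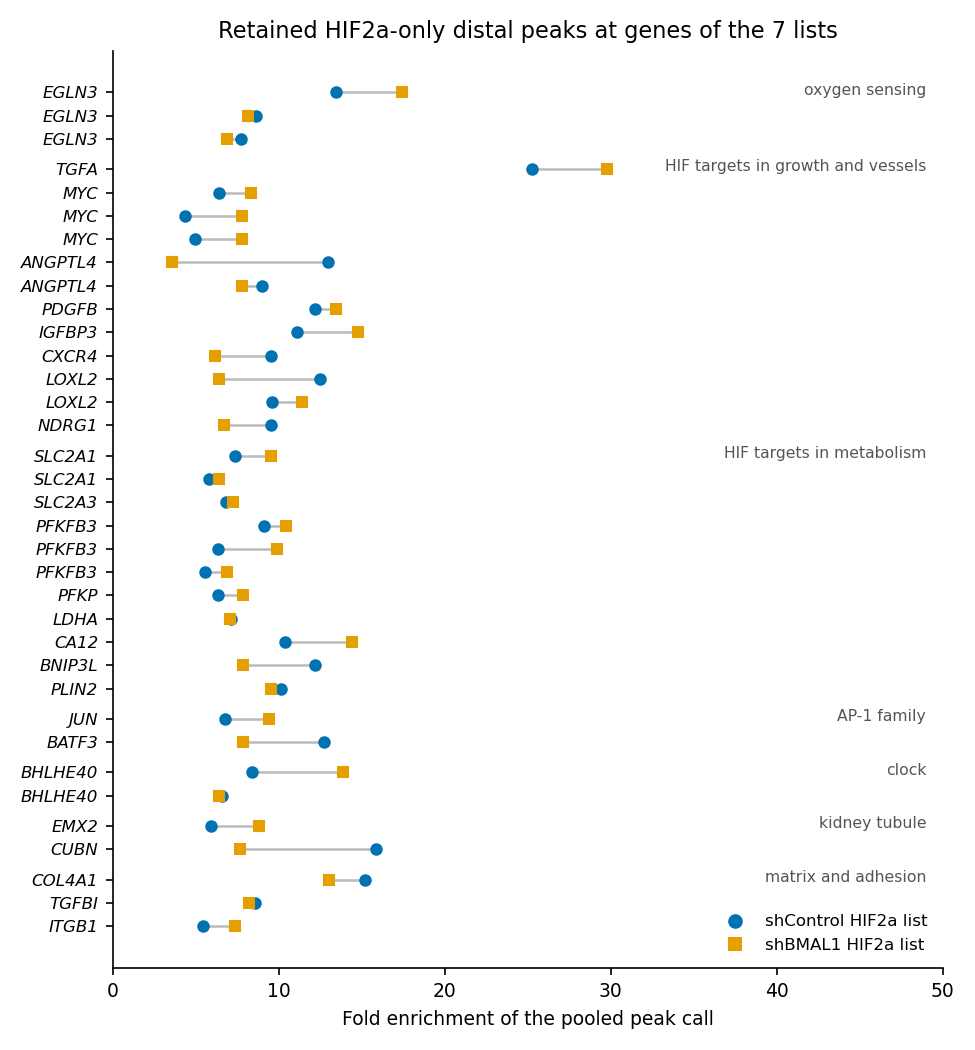
Fold enrichment of the members assigned to genes of the 7 lists, in the shControl HIF2α list (circles) and the shBMAL1 HIF2α list (squares), 1 line per site. TGFA has the highest folds in both lists (25.3 and 29.8). The ANGPTL4 site 1.11 kb from the start, one of 2 members at that gene, shows the largest fall, from 13.0 to 3.55.

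The remaining lists had few members. In the AP-1 family 2 of 13 genes had 1 each, JUN (folds 6.77 and 9.44, with an E-box) and BATF3 (12.7 and 7.84). Of 18 clock genes 1 had members, BHLHE40, a repressor of the clock that is also induced by hypoxia. Its intergenic sites had folds of 8.38 and 6.60 in shControl and 13.9 and 6.39 in shBMAL1 cells, and the first lay 585 bp from a shControl BMAL1 peak. PER1 and PER2 had HIF2α peaks and no member. Of 15 kidney tubule genes, CUBN, the receptor for vitamin B12 and filtered protein, had an intronic member with TACGTG that went from a fold of 15.9 at rank 111 to 7.66 at rank 495, and EMX2, a transcription factor of kidney development, had one that went from 5.90 to 8.80. Of 18 genes of matrix and adhesion, COL4A1, a chain of basement membrane collagen, had folds of 15.2 and 13.0, TGFBI had 8.60 and 8.18, and ITGB1 had 5.44 and 7.39. CMIP, with 3 members and no place in the lists, had folds of 9.37, 10.1 and 6.36 in shControl and 10.8, 7.96 and 6.88 in shBMAL1 cells.

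Some members lay close to a criterion. The smallest overlaps with a shBMAL1 HIF2α peak were 18 bp at LGALSL, 36 bp at TBXAS1 and 61 bp at EMP2. The lost peaks nearest to a shBMAL1 HIF2α peak missed it by 403 bp at MAP9, 479 bp at MYC and 524 bp at CDCP1. The midpoints of members at GPR15LG, SLC2A1 and ITGB1 lay 12, 38 and 38 bp outside a promoter, and those of the peaks at ARHGAP27, DERA and ZBTB20 lay 4, 19 and 22 bp inside one. The shControl BMAL1 peaks nearest to members were 573 bp away at RPTOR, 585 bp at BHLHE40 and 604 bp at TRIP13, and the smallest overlaps among distal peaks with BMAL1 were 54 bp at IRS2, 110 bp at CUX1 and 111 bp at XXYLT1.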

How the data were processed

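CUT&RUN was performed by the authors on 786-O cells, with 100000 cells per reaction. Per the labels and methods the authors aligned reads to hg19 with Bowtie2 2.5.3, processed them with SAMtools 1.6 and sambamba, removed duplicates, called peaks with MACS2 2.2.9.1 and removed blacklisted regions with bedtools 2.31.1. Whether IgG served as the control in calling is not stated. Each deposited list holds, per peak, a fold ratio over local background, −log10 p, −log10 q and an integer score as MACS2 gave them. Libraries were pooled, so no replicate or read count stands behind a value. How pooling and the threshold on p act on a weak site cannot be checked from the lists.

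From these lists, overlaps of at least 1 bp, promoters (GENCODE 44 on GRCh37, whose coordinates match hg19), nearest starts, motifs on both strands in 200 bp summit windows, windows 2000 bp to either side and second copies (BLAST 2.17.0, at least 90% identity over 90% of the window) were computed with pandas 2.3.3, pysam 0.24.0 and scipy 1.17.1. Ranks follow −log10 p within a list. Shares carry 95% Wilson intervals and were set against each other with Fisher's exact test (two-sided), adjusted by the Benjamini-Hochberg method over 16 planned tests, and within quintiles of shControl peak p by an exact conditional Cochran-Mantel-Haenszel test. The 10 hexamer comparisons and the shifted window were added after the data were examined. Scripts were tested on simulated data. Members and gene lists were chosen with earlier results of these data known. Named were the 10 members of smallest p, members at genes of the lists, the 5 strongest with an E-box, those overlapping a shBMAL1 BMAL1 peak, genes with 3 or more members, sites nearest to each criterion and the 3 largest rises and falls in rank. KRCC1 and CP were named after their values were seen. Printed sequences follow strength among single-copy members, and none was taken from chromosome 8. The IgG libraries were not analysed here.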

Additional observations from a re-analysis of the deposited data

How the results depend on the processing

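The 20 results were recomputed under 12 alternative settings, which gave 207 values. Of these, 182 kept their direction and side of the threshold or, for the number of members, stayed within 1.5 times the reported count. Leaving out replicates was not run, since each list pools its libraries. No paired analysis was possible because no list separates the replicates of its group. The number of members ranged from 289 with distal set beyond 2500 bp of a start to 428 with promoters of protein-coding transcripts only. The lists hold no read counts, so a lost site cannot be told from one below the threshold.

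The HRE difference from lost peaks no longer passed in 100 bp windows (7.69 points) and within quintiles of peak p (8.34), and the TACGTG difference within quintiles (9.37). The HRE difference from promoter peaks no longer passed at 100 bp (−10.5), 300 bp (−7.54), on the midpoint (−3.83), 60 bp before the summit (−4.02), with distal beyond 2500 bp (−8.06), with 50% reciprocal overlap (−8.68) and with −log10 q of at least 10 (−9.99). The HRE difference from distal peaks with BMAL1 no longer passed at 100 bp (6.33) and beyond 2500 bp (11.4), nor the E-box difference at 100 bp (−3.34) and on the midpoint (−5.31).

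Differences that had not passed the threshold changed sign in 11 of these values, over 7 settings, and did not pass there either. AP-1 against lost peaks was 0.451 points at 100 bp, 1.04 with reciprocal overlap and 1.14 within quintiles, and AP-1 against promoter peaks −1.33 at 100 bp. E-box against lost peaks was 0.238 at 300 bp and 1.46 within quintiles, and the GC box 0.146 on the midpoint. Overlap with shBMAL1 BMAL1 against promoter peaks was 1.64 with coding promoters and 1.14 without second copies, and second copies against lost peaks −0.199 with coding promoters and −0.716 within quintiles. The cause of these changes was not tested.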
